A study of Mus musculus with 3 samples.

Results

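The 36 genes described here encode aminoacyl-tRNA synthetases, and they were chosen by gene name, not by a threshold on measured values. They were 20 genes of cytosolic enzymes and 16 genes of mitochondrial enzymes, whose symbols end in 2, out of 26887 genes listed in at least 1 library. All 36 were listed in each of the 3 libraries. The libraries came from RNA interactome analysis and sequencing (RIA-seq), in which antisense oligonucleotides against one RNA recover that RNA and the RNAs held with it in fixed cells. All 3 were made from undifferentiated mouse E14 embryonic stem (ES) cells of strain 129/Ola, grown without feeder cells and with LIF and fixed with glutaraldehyde. The labels name no genetic change or drug for any of them. The libraries differ in the RNA targeted, which was the β-actin mRNA Actb in the control (Actb RIA-seq), the nuclear long noncoding RNA Malat1 in Malat1 RIA-seq and the transferrin receptor mRNA Tfrc in Tfrc RIA-seq. Each condition had 1 library, so no spread between replicates could be measured, no test between conditions was made, and the intervals below cover the counting error of PCR-amplified reads only.

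Aminoacyl-tRNA synthetases join each amino acid to its tRNA, which sets the reading of the genetic code. Mammals use a cytosolic set for tRNAs that serve cytosolic ribosomes and a second, nuclear-encoded set that is imported into mitochondria for the proteins of the mitochondrial genome. Several cytosolic enzymes sit together in a multisynthetase complex, here represented by Dars, Eprs, Iars, Kars, Lars, Mars, Qars and Rars. Gars and Kars each encode the cytosolic and the mitochondrial form of their enzyme, and mitochondrial glutaminyl-tRNA is made by an indirect route, so neither Gars, Kars nor Qars has a partner gene among the mitochondrial members.

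The totals were 10405209 counts in the Actb library, 10078439 in the Malat1 library and 14553941 in the Tfrc library, and 3 counts, the limit that a count of 0 allows, corresponded to 0.206 to 0.298 per 1000000 counts. Reads of a gene were tabulated in up to 2 rows, here called its Ensembl-ID count and its Genome count after the reference each row names, and these are given apart and as their sum. The labels were checked on the target RNAs. Actb had 759974 summed counts in its own library and 8964 and 13445 in the Malat1 and Tfrc libraries. Malat1 was 5.81-fold higher in the Malat1 library than in the Actb library (95% interval 5.72 to 5.90), and Tfrc was 2.69-fold higher in the Tfrc library (2.42 to 2.98). Each was also higher in the other pull-down, Malat1 by 3.84-fold in the Tfrc library (3.78 to 3.90) and Tfrc by 2.32-fold in the Malat1 library (2.08 to 2.60), and the intervals for Tfrc in the 2 libraries overlap. The median gene was itself 1.82-fold higher in the Malat1 library and 1.56-fold higher in the Tfrc library than in the Actb library. All 9 ES cell markers examined had at least 1244 counts in every library, whereas 5 genes of differentiated lineages summed to 4.90 to 11.5 per 1000000 counts, with Afp at 0 to 2 counts. The fibroblast list summed to 18.8 to 21.6 per 1000000 counts, most of it Thy1, with Dcn at 0 to 3 counts and Lum not listed.

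Lars2, which encodes the mitochondrial leucyl-tRNA synthetase, held more counts than any other gene in each of the 3 libraries. Lars2 (ENSMUSG00000035202) lies at chr9:123276058-123371782 on the plus strand of the mouse genome build NCBIM37. Its annotated transcript has 21 exons and 3881 nt, of which 2709 nt are coding, 186 nt form the 5′ untranslated region (UTR) and 986 nt the 3′ UTR. The introns add up to 91844 nt. The first sequence below shows the start of the coding part, in exon 2 at chr9:123280991-123281221, with the start codon in capitals. It is printed because the coding part had no match elsewhere in the genome by the search described below. The second, at chr9:123281192-123281251, crosses the end of exon 2, with the exon in lower case and the intron in capitals, and marks the border between the parts by whose lengths the 2 kinds of count were divided below. Both were read from NCBIM37 (C57BL/6J), not from the 129/Ola cells.
Lars2 exon 2, coding part: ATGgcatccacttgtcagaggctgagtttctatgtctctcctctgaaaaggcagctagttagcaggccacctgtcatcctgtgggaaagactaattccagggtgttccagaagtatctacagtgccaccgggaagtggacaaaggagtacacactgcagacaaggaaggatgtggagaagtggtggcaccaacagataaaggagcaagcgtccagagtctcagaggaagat
Lars2 exon 2 border: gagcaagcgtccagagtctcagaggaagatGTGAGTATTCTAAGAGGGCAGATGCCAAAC

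The Lars2 sum was 3334635 counts in the Actb library, 1710112 in the Malat1 library and 3229027 in the Tfrc library. These were 32.0%, 17.0% and 22.2% of all counts in the library, respectively, so the control held the highest share. In the Actb library the next genes were Actb, with 759974 counts, and Gm12913, with 635688. In the Malat1 library they were mt-Co1, with 108820 counts, and Malat1, with 107409. In the Tfrc library they were Gm12913, with 344397 counts, and mt-Co1, with 296890. Lars2 thus exceeded the next gene by 4.39-fold in the Actb library, 15.7-fold in the Malat1 library and 9.38-fold in the Tfrc library, and exceeded the targeted RNA itself in all 3 libraries.

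The distance to the other synthetases was larger still. The other 35 genes together had 23386 counts in the Actb library, 30858 in the Malat1 library and 36980 in the Tfrc library, or 0.225%, 0.306% and 0.254% of the library. Lars2 therefore held 143, 55.4 and 87.3 times the counts of all other synthetases together, and 99.3%, 98.2% and 98.9% of the synthetase counts. The synthetase with the next highest count was Aars, the alanyl-tRNA synthetase, with 2370 counts in the Actb library, and Eprs, the bifunctional glutamyl-prolyl-tRNA synthetase, with 3071 in the Malat1 library and 3474 in the Tfrc library. Lars, the cytosolic enzyme for the same amino acid, had 911 counts in the Actb library, 1194 in the Malat1 library and 1278 in the Tfrc library.

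Levels of different genes were compared per length, as Ensembl-ID counts per kb of merged exon per 1000000 counts (exon density). The exon density of Lars2 was 82574 in the Actb library, 43717 in the Malat1 library and 57163 in the Tfrc library. It ranked 3 of 19301 genes with an exon density in the Actb library, 2 of 20702 in the Malat1 library and 2 of 22111 in the Tfrc library. The highest exon density of any other synthetase was 82.9 in the Actb library (Kars), 94.5 in the Malat1 library (Nars) and 71.2 in the Tfrc library (Nars), so that Lars2 stood 996-fold, 463-fold and 803-fold above it. The plot of exon density by gene and library shows this gap on a log axis.

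**Figure D1:**
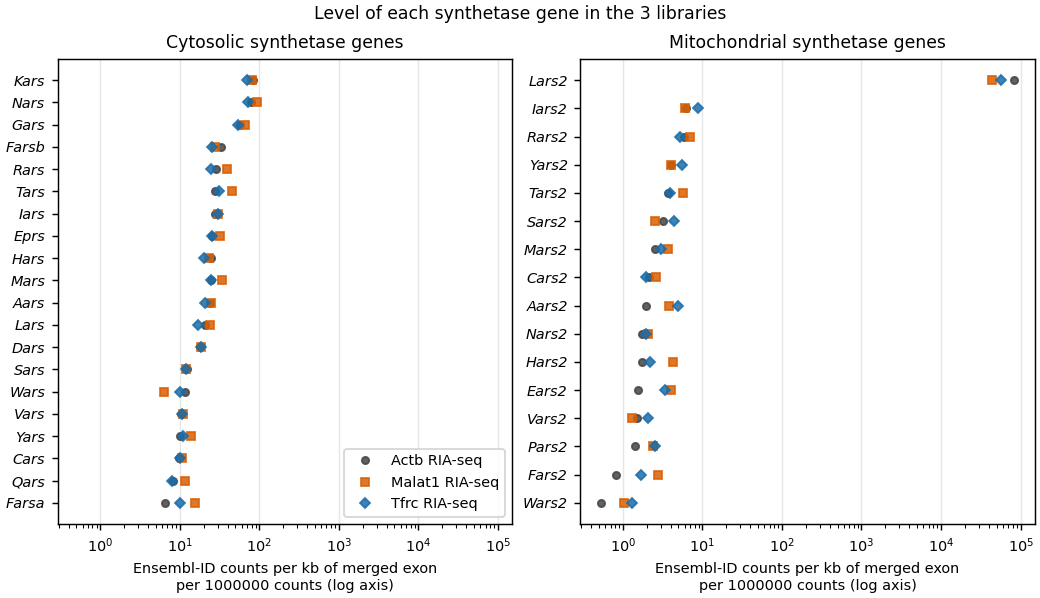
Exon density of each synthetase gene (Ensembl-ID counts per kb of merged exon per 1000000 counts, log axis), with cytosolic genes on the left, mitochondrial genes on the right and 1 point per library. The 3 Lars2 points, at 43717 to 82574, stand apart from those of all other synthetases, which lie at 94.5 or below.

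The 2 kinds of count did not share this excess. Of the Lars2 counts, 3334571, 1709958 and 3228813 were Ensembl-ID counts in the Actb, Malat1 and Tfrc libraries, and 64, 154 and 214 were Genome counts. How reads were divided between the 2 kinds is not given in the sources used here. Across the other 34 synthetases with introns, the Genome count followed intron length, with a Spearman's rho of 0.770, 0.803 and 0.809 in the 3 libraries, given as a description across genes that share the library. Genome counts were therefore divided by the total intron length, as counts per kb of intron per 1000000 counts (intron density). The intron density of Lars2 was 0.0670 in the Actb library, 0.166 in the Malat1 library and 0.160 in the Tfrc library, which ranked 30, 33 and 31 of 35 synthetase genes. The medians of the other synthetases were 0.158, 0.618 and 0.444, with Pars2 highest in each library at 0.515, 2.83 and 1.66. The Pars2 values rest on only 6, 32 and 27 Genome counts and 1120 nt of intron. Among the 8629 protein-coding genes whose introns reached 10 kb and whose summed counts reached 10 in each library, the Lars2 intron density was above that of 53.6% in the Actb library, 39.1% in the Malat1 library and 44.8% in the Tfrc library. Lars2 thus lay near the middle of these genes by Genome counts and within the top 3 of all genes by exon density.

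**Figure D2:**
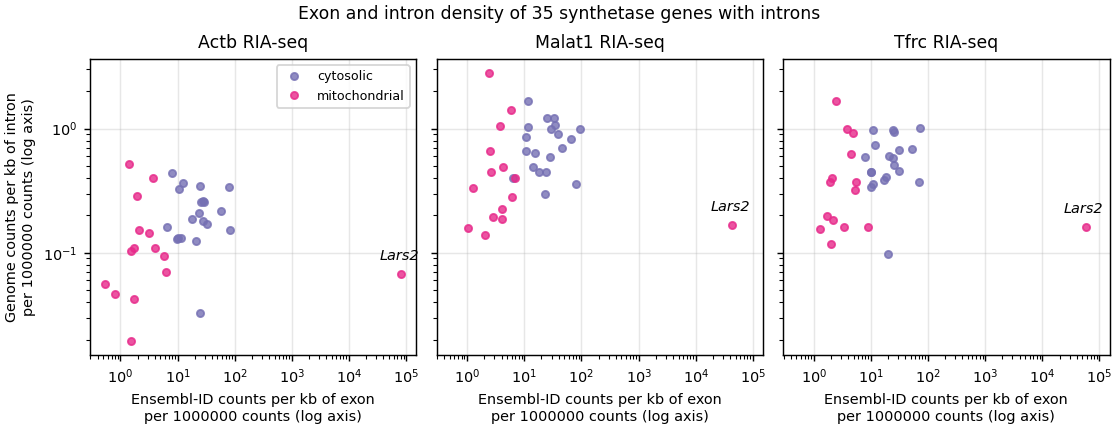
Exon density (x axis) against intron density (y axis; Genome counts per kb of intron per 1000000 counts) of the 35 synthetase genes with introns, both on log axes, 1 panel per library. Lars2 lies far to the right on the x axis, whereas its intron density of 0.0670 to 0.166 lies among those of the other genes.

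The Lars2 transcript was searched against the NCBIM37 genome for other places with at least 80% identity over at least 100 nt. The search gave 17 matches outside the gene, of which 11 were on the same strand. All 17 fell in the 3′ UTR, at transcript positions 3009 to 3406 counted from the 5′ end, a stretch of 398 nt or 10.3% of the transcript. None touched the coding part, and none lay on the mitochondrial genome. The longest match was 244 nt at 97.5% identity, at chr12:79451917-79452160 within the bounds of Gphn. The closest was 168 nt at 98.8% identity, at chr6:49186449-49186616, where no gene was annotated. Only 1 match overlapped an annotated exon, 167 nt at 97.6% identity in Gm15564 at chr16:35981741-35981907, and 8 lay outside any annotated gene. The deposited tables give 1 number per gene and no position, so where in Lars2 its reads lay is unknown, and the part of the shared stretch in its count was not tested.

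**Figure D3:**
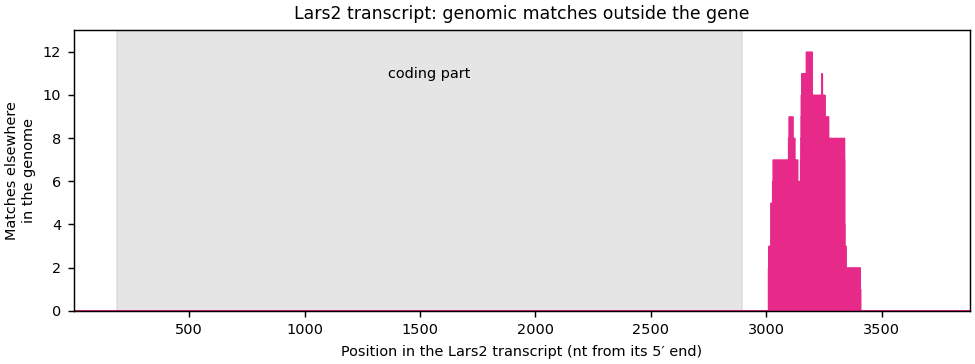
Number of matches elsewhere in the genome at each position of the Lars2 transcript (x axis, nt from the 5′ end), with the coding part shaded. All matches stack up in 1 stretch of the 3′ UTR, positions 3009 to 3406, where up to 12 overlap, and the coding part has none.

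The same search was made for every member. Of the 36 transcripts, 13 had a match elsewhere and 23 had none, and 7 had a match to their coding part. Wars2, the mitochondrial tryptophanyl-tRNA synthetase, had the most, with 74281 matches, and Pars2 (prolyl) and Nars2 (asparaginyl) had 359 and 202. Matches covered 1735 of the 1875 coding nt of Kars, 2690 of 3834 of Vars, 2236 of 3789 of Iars and 1418 of 1518 of Hars2. Cars, Hars and Rars2 also had a match to their coding part. How reads with several matches were counted is not given in the sources used here. Wars2 had the lowest exon density of all 36 genes in each library, at 0.533 in the Actb library, 1.03 in the Malat1 library and 1.31 in the Tfrc library. Per kb of the longest coding transcript, Wars2 was also lowest in the Actb and Malat1 libraries, but Fars2 (1.68) lay below it (1.76) in the Tfrc library. Whether the matches bear on the density of Wars2, or of the genes with a match to their coding part, was not tested. Exon bases were shared with another annotated gene for 11 members, so their counts could depend on how such reads were assigned. These were Aars, Cars, Farsb, Hars, Mars, Vars, Yars, Ears2, Hars2, Iars2 and Nars2, and among them Hars and Hars2 share exon bases with each other.

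Without Lars2, the cytosolic enzymes made up most of the synthetase counts. The 20 cytosolic genes summed to 21105 counts in the Actb library, 26627 in the Malat1 library and 30999 in the Tfrc library, and the 15 mitochondrial genes to 2281, 4231 and 5981. The median exon density of the cytosolic genes was 24.4, 24.4 and 20.3 in the 3 libraries, against 1.98, 3.68 and 2.98 for the mitochondrial genes, a ratio of 12.3 in the Actb library, 6.62 in the Malat1 library and 6.81 in the Tfrc library. The ranges did not overlap in the Actb library, where the cytosolic genes had 6.59 to 82.9 and the mitochondrial genes 0.533 to 6.25. In each of the other libraries 1 mitochondrial gene lay above the lowest cytosolic gene, Rars2 (6.98) above Wars (6.39) in the Malat1 library and Iars2 (8.87) above Qars (8.07) in the Tfrc library.

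Among cytosolic genes the highest exon densities were those of Kars, Nars and Gars, the lysyl-, asparaginyl- and glycyl-tRNA synthetases. Kars (chr8:114517340-114535223) had an exon density of 82.9 in the Actb library, 81.1 in the Malat1 library and 69.3 in the Tfrc library. Nars, on chromosome 18, had 78.5, 94.5 and 71.2. Gars had 56.9, 67.0 and 53.5. These 3 genes kept the top places in every library, whereas the order of Kars and Nars differed between libraries. Tars (threonyl) followed at 27.9 to 46.0, Rars (arginyl) at 24.6 to 39.1, Farsb (the β subunit of the phenylalanyl enzyme) at 25.2 to 33.1, Eprs at 25.6 to 32.5, Iars (isoleucyl) at 27.5 to 30.7 and Mars (methionyl) at 24.7 to 34.0. Hars (histidyl) had 19.9 to 25.01, Aars 20.6 to 24.5, Lars 17.2 to 24.2 and Dars (aspartyl) 18.0 to 18.4. The lowest were Sars (seryl) at 11.8 to 12.3, Wars (tryptophanyl) at 6.39 to 11.6, Vars (valyl) at 10.5 to 10.9, Yars (tyrosyl) at 10.0 to 13.9, Cars (cysteinyl) at 9.67 to 10.7, Farsa (the α subunit of the phenylalanyl enzyme) at 6.59 to 15.6 and Qars (glutaminyl) at 8.07 to 11.5. Merged exons count every annotated form and lower the density of genes with retained introns. For Qars the merged exons were 6200 nt and the transcript 2501 nt long.

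Among the mitochondrial genes other than Lars2, the highest exon densities were those of Iars2 and Rars2, the isoleucyl- and arginyl-tRNA synthetases. Iars2 (chr1:187108605-187153275) had an exon density of 6.25 in the Actb library, 6.04 in the Malat1 library and 8.87 in the Tfrc library. Rars2 (chr4:34562206-34607416) had 5.79, 6.98 and 5.23. Which of them was higher therefore differed between libraries. Yars2 followed at 3.998 to 5.54, Tars2 at 3.75 to 5.75, Sars2 at 2.51 to 4.43, Mars2 at 2.57 to 3.68, Aars2 at 1.98 to 4.95, Hars2 at 1.73 to 4.22, Ears2 (glutamyl) at 1.55 to 4.04 and Cars2 at 1.94 to 2.65. Pars2 had 1.43 to 2.51, Nars2 1.76 to 2.10, Vars2 1.29 to 2.08 and Fars2 (phenylalanyl) 0.814 to 2.802.

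For 13 amino acids each compartment had 1 gene, which allowed enzymes for the same amino acid to be set side by side. In 12 of these 13 pairs the exon density of the cytosolic gene was higher than that of its mitochondrial partner in every library, and the same count held for counts per kb of the longest coding transcript. The ratio ran from 2.50 for tyrosine (Yars and Yars2) to 44.7 for asparagine (Nars and Nars2) in the Actb library, from 3.48 to 45.1 in the Malat1 library and from 1.97 to 36.1 in the Tfrc library, with the same pairs at both ends. The median ratio of the 12 pairs was 7.18, 5.89 and 5.19 in the 3 libraries. The leucine pair was the exception. Lars had an exon density of 20.9 in the Actb library, 24.2 in the Malat1 library and 17.2 in the Tfrc library, beside the values of Lars2 given above.

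The share of Genome counts was higher for the mitochondrial sum than for the cytosolic sum, while single genes overlapped. It was 5.44% of the cytosolic counts in the Actb library (95% Wilson interval 5.15 to 5.76), 15.6% in the Malat1 library (15.2 to 16.1) and 14.8% in the Tfrc library (14.4 to 15.2). For the mitochondrial genes without Lars2 it was 23.9% (22.2 to 25.7), 47.5% (46.0 to 49.0) and 43.5% (42.3 to 44.8). Fars2 (chr13:36209280-36629461), whose introns add up to 418057 nt, was the extreme, with Genome shares of 91.8%, 93.2% and 95.8%. Without Fars2 the mitochondrial share was 16.7%, 35.6% and 29.7%. By gene, the cytosolic shares ran from 0.958% (Hars) to 17.4% (Dars) in the Actb library, from 2.96% (Kars) to 39.8% (Cars) in the Malat1 library and from 2.02% (Qars) to 36.1% (Farsb) in the Tfrc library. Of the 15 mitochondrial genes, 7, 8 and 7 lay below the highest cytosolic gene. Mars2 has a single merged exon, and its Genome count was 2 in the Actb library and 0 in the other libraries. Over all genes other than Lars2, Genome counts made up 7.73%, 22.9% and 19.4% of the library, so the share was higher in the Malat1 and Tfrc libraries than in the control well beyond the synthetases.

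The comparison of Malat1 RIA-seq with Actb RIA-seq asks which RNAs were recovered more with Malat1 than with the control mRNA. Folds are ratios of shares of the library total, without a pseudocount, and all 36 genes had the minimum of 10 summed counts in both libraries. Over all 14572 genes with that minimum the median fold was 1.82, and 42.1% of them had a fold of at least 2 and 0.954% a fold of 0.5 or less. Of the 36 synthetases, 9 (8 mitochondrial and 1 cytosolic) had a fold of at least 2 and 0 had a fold of 0.5 or less, with a median of 1.45. The median was 1.32 for the cytosolic genes and 2.01 for the 15 mitochondrial genes other than Lars2, and 1 of 20 and 9 of 15 lay above the median of all genes. Other genes whose mean share over the 3 libraries lay within the range of the cytosolic genes (3385 genes) had a median fold of 1.77. Those within the range of the mitochondrial genes without Lars2 (7637 genes) had 1.84.

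Fars2 and Ears2, both mitochondrial, had the largest folds in the Malat1 library. Fars2 had 219 summed counts in the Actb library, 877 in the Malat1 library and 1248 in the Tfrc library, and its fold in the Malat1 library was 4.13 (3.57 to 4.79). Its Ensembl-ID counts alone were 18, 60 and 52, so nearly all of its counts were Genome counts. In the Malat1 library its fold was 3.44 (2.03 to 5.83) on Ensembl-ID counts and 4.20 (3.60 to 4.90) on Genome counts. The median fold of Genome counts over all genes was 3.60, and over the total of Genome counts Fars2 had 1.16 (0.993 to 1.35). Ears2 (chr7:129180727-129210777) had 88, 257 and 312 counts, and its fold was 3.02 (2.37 to 3.84). Ears2 was counted mainly under its Ensembl identifier, with 83 and 210 Ensembl-ID counts in the Actb and Malat1 libraries and a fold of 2.61 (2.03 to 3.37) on these alone. The other mitochondrial genes with a fold of at least 2 were Hars2 (2.59), Wars2 (2.49), Aars2 (2.45), Pars2 (2.10), Cars2 (2.06) and Nars2 (2.01). The lower bound lay under 2 for the last 5 of these, at 1.51 to 1.94. The single cytosolic gene was Farsa, with 324 counts in the Actb library, 765 in the Malat1 library and 710 in the Tfrc library and a fold of 2.44 (2.14 to 2.78), whereas Farsb, the other subunit of the same enzyme, had a fold of 1.18 (1.08 to 1.28).

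Lars2 and Wars had the smallest folds in the Malat1 library. The Lars2 fold was 0.529 (0.529 to 0.530), and 1.13% of all genes tested had a lower one. Wars (chr12:110098240-110132384) had 458 summed counts in the Actb library, 347 in the Malat1 library and 664 in the Tfrc library, and its fold in the Malat1 library was 0.782 (0.680 to 0.899). On Genome counts alone the folds were 2.48 (1.86 to 3.32) for Lars2 and 3.07 (2.17 to 4.36) for Wars. Both lay under the median of 3.60 over all genes for Genome counts. Over the total of Genome counts they were 0.686 (0.512 to 0.918) for Lars2 and 0.848 (0.598 to 1.20) for Wars. Lars, the cytosolic leucyl enzyme on chromosome 18, had a fold of 1.35 (1.24 to 1.47). The 8 genes of the multisynthetase complex had a summed fold of 1.33 (1.30 to 1.37), with none at 2 or above, and the 12 other cytosolic genes 1.28 (1.25 to 1.31).

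The comparison of Tfrc RIA-seq with the same control asks the question for Tfrc. The median over all 14691 genes tested was 1.56, and 28.6% had a fold of at least 2 and 0.388% a fold of 0.5 or less. Of the 36 synthetases, 4 had a fold of at least 2, all mitochondrial, and 0 had a fold of 0.5 or less, with a median of 1.21. The median was 1.08 for the cytosolic genes and 1.65 for the 15 mitochondrial genes, and 1 of 20 and 9 of 15 lay above the median of all genes. Other genes of like mean share over the 3 libraries had medians of 1.46 for the cytosolic range and 1.57 for the mitochondrial range. Both comparisons use the same Actb library, so a low or high count there moves both.

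The largest folds in the Tfrc library were those of Fars2, at 4.07 (3.53 to 4.70), and Aars2, the mitochondrial alanyl-tRNA synthetase. Aars2 (chr17:45643790-45657791) had 101 summed counts in the Actb library, 240 in the Malat1 library and 385 in the Tfrc library, and its fold was 2.73 (2.19 to 3.39). Wars2 (2.65) and Ears2 (2.54) were the other genes at 2 or above. The smallest were Lars2, at 0.692 (0.691 to 0.693), below which lay 2.21% of all genes, and Hars, the cytosolic histidyl-tRNA synthetase on chromosome 18. Hars had 522 counts in the Actb library, 511 in the Malat1 library and 597 in the Tfrc library, and its fold in the Tfrc library was 0.818 (0.727 to 0.920). Lars had a fold of 1.00 (0.921 to 1.09) and the multisynthetase complex a summed fold of 1.07 (1.04 to 1.10), with none of its 8 genes at 2 or above. The plot of folds shows each gene with its counting interval beside the median of all genes.

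**Figure D4:**
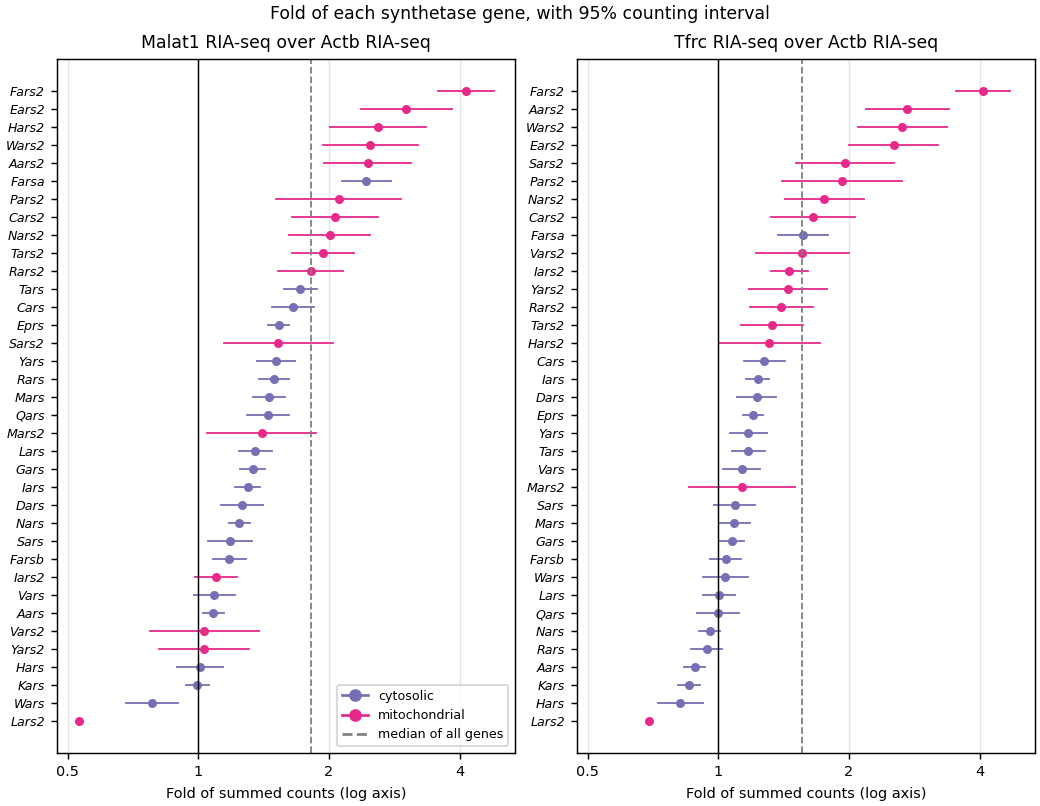
Fold of the summed counts of each synthetase gene in the Malat1 library (left) and the Tfrc library (right) over the Actb library (log axis), with 95% counting intervals, in order of fold. Lars2 is lowest in both panels at 0.529 and 0.692, Fars2 is highest at 4.13 and 4.07, and most cytosolic genes lie left of the dashed median of all genes (1.82 and 1.56).

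These folds are set by the library total, of which Lars2 alone took between 17.0% and 32.0%. When folds were divided by the median over all genes, 1 synthetase (Fars2) had a fold of at least 2 in each comparison, at 2.27 in the Malat1 library and 2.61 in the Tfrc library, against 7.38% and 6.90% of all genes. On this scale Lars2 had 0.291 and 0.444, Lars 0.744 and 0.643, and the summed cytosolic genes 0.716 and 0.674. The summed cytosolic fold was 1.30 (1.28 to 1.33) in the Malat1 library and 1.05 (1.03 to 1.07) in the Tfrc library on the library total, so its direction turned with the scaling in both. The summed mitochondrial fold without Lars2 was 1.92 (1.82 to 2.02) and 1.87 (1.79 to 1.97) on the library total and 1.05 and 1.20 on the median scale.

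The relation of the compartments to each other does not depend on that scaling. The mitochondrial share of the synthetase counts without Lars2 was 9.75% in the Actb library (9.38 to 10.1), 13.7% in the Malat1 library (13.3 to 14.1) and 16.2% in the Tfrc library (15.8 to 16.6). The mitochondrial fold was thus 1.47 times the cytosolic fold in the Malat1 library (1.39 to 1.55) and 1.79 times in the Tfrc library (1.70 to 1.88). On Ensembl-ID counts alone the shares were 7.999%, 8.99% and 11.3%, and the ratio of folds was 1.14 (1.06 to 1.21) and 1.47 (1.38 to 1.56). On Genome counts alone they were 32.2%, 32.6% and 36.2%, and the ratio was 1.02 (0.907 to 1.14) and 1.20 (1.07 to 1.34). Without Fars2 the ratio on Genome counts was 0.956 (0.834 to 1.10) and 1.02 (0.894 to 1.17), intervals that include 1. In both comparisons, therefore, the difference between the compartments within each kind of count was smaller than the difference on the sum.

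**Figure D5:**
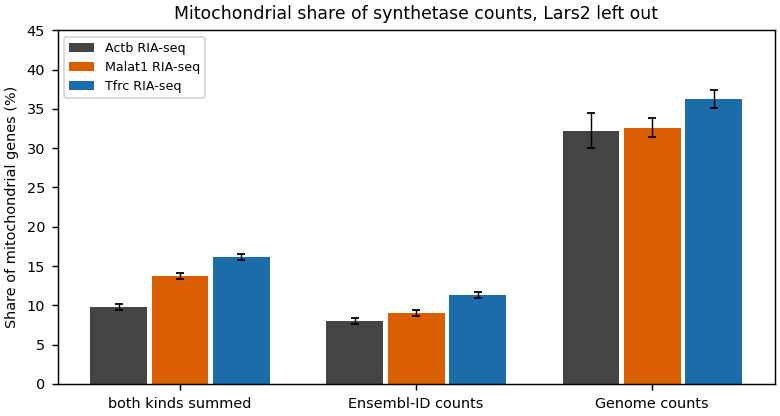
Share of the mitochondrial genes in all synthetase counts without Lars2 (bars, starting at 0; error bars, 95% Wilson intervals), for both kinds of count summed, Ensembl-ID counts and Genome counts in each library. The summed share runs from 9.75% in the Actb library to 16.2% in the Tfrc library, while the share within Genome counts lies at 32.2% to 36.2%.

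The folds of Genome counts themselves were higher throughout. Of the 36 synthetases, 28 had at least 10 Genome counts in the libraries compared, and all 28 had a fold of at least 2 in both comparisons, with medians of 3.58 in the Malat1 library and 2.78 in the Tfrc library beside 3.60 and 2.86 over all genes. A fold of at least 2 in Genome counts was the rule, with 88.6% and 79.6% of all genes tested. On Ensembl-ID counts 4 of the 36 genes had a fold of at least 2 in each comparison, where 24.0% and 14.1% of all genes did. The medians were 1.20 and 1.03 beside 1.41 and 1.26 over all genes. The compartments differed here, with medians in Ensembl-ID counts of 1.13 and 0.978 for the 20 cytosolic genes and 1.43 and 1.38 for the 15 mitochondrial genes, of which 8 and 10 lay above the median of all genes.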

How the data were processed

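The authors deposited raw read counts, not normalized, in 1 table per library, where a gene has at most 2 rows. Per the labels, RNA was pulled down with antisense oligonucleotides and sequenced, and the submitters' processing notes name Bowtie 0.12.7 and the builds mm9 and NCBIM37. The counting rule, the meaning of Genome rows and the treatment of duplicates and multiple matches are not given in the sources used here. Both counts of a gene were summed and divided by the library total, and folds are ratios of these shares with a pseudocount of 0. Intervals are at the 95% level, Wilson for shares and on the log scale for folds. Fold counts cover genes with at least 10 summed counts in both libraries. With 1 library per condition no p-value was computed.

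All 36 identifiers and chromosomes matched GENCODE vM1 on NCBIM37. Merged exons include every annotated form. The longest coding transcripts were aligned to the genome with BLAST+ 2.17.0 (megablast, at least 80% identity over at least 100 nt). Analyses used Python 3.11.15, pandas 2.3.3, numpy 2.4.6, scipy 1.17.1 and matplotlib 3.10.9, and the fold computation was tested on simulated counts.

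The members and lists were chosen with earlier results of these data known. Every member is named. One further gene considered for the list of related genes was left out and is not reported here. Full values are given for Lars2, Lars, the 2 largest and 2 smallest folds of each comparison and the highest exon densities, and Ears2, Farsa and Farsb values beyond that rule were chosen after they were seen. Alternatives covered the scaling, the library total, the kind of count, the pseudocount and the minimum. Alternatives added after seeing the data were Genome counts over their own total, Ensembl-ID counts over their own total without Lars2, and the mitochondrial sum without Fars2.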

Additional observations from a re-analysis of the deposited data

How the results depend on the processing

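Values are for Malat1 and then Tfrc over Actb. A pseudocount of 1 moved the count of genes with a fold of at least 2 in the first comparison from 9 to 8 (Nars2, 2.01 to 1.999) and no minimum count changed no count, and the cause was not tested where a value moved. Scaled to the median gene, the folds were 0.291 and 0.444 for Lars2, 0.716 and 0.674 for the cytosolic sum and 1.05 and 1.20 for the mitochondrial sum without Lars2, and 1 gene in each comparison had a fold of at least 2. With a library total without Lars2, the cytosolic sum had 1.07 and 0.917, the mitochondrial sum 1.57 and 1.64, and 5 genes in place of 9 had a fold of at least 2 in the first comparison. Without Actb, Malat1 and Tfrc in the total, Lars2 had 0.496 and 0.646, the cytosolic sum 1.22 and 0.979 and the mitochondrial sum 1.79 and 1.75, with 6 genes at 2 or above in the first comparison. Ensembl-ID counts alone gave 1.16 and 0.947 for the cytosolic sum and 1.32 and 1.39 for the mitochondrial sum, with 4 genes at 2 or above in the first comparison. Over the Ensembl-ID total without Lars2 these were 1.14 and 0.946, 1.29 and 1.39, and 4 genes. Genome counts alone gave 2.48 and 2.39 for Lars2, 3.74 and 2.85 for the cytosolic sum and 3.80 and 3.41 for the mitochondrial sum, with 28 genes at 2 or above in each. Over the Genome total they gave 0.686 and 0.832, 1.03 and 0.991, and 1.05 and 1.19, with 0 genes at 2 or above in each. Some genes with a fold of at least 2 on the library total were under 1 on that scale. These were Aars2 (0.997), Cars2 (0.813), Nars2 (0.914) and Wars2 (0.781) in the first comparison and Wars2 (0.968) in the second. Genes with smaller folds, such as the cytosolic Vars (0.561), Kars (0.638) and Dars (0.668), were also under 1 in the first comparison. Without Fars2 the mitochondrial sum had 1.68 and 1.64.

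The cytosolic sum in the second comparison, 1.05 as reported, was therefore above 1 only on the library total and on Genome counts over the whole total. No paired analysis was possible because each condition had 1 library. No replicate could be left out for the same reason. Depth limits the mitochondrial genes most, with 52 to 604 summed counts for all but Lars2 in the Actb library.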

Other observations

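Genes that work beside the synthetases were examined in the same way. Of a list of 15 names, 13 were listed (Pet112 and Gatb were not): the complex scaffolds Aimp1, Aimp2 and Eef1e1, the CCA-adding enzyme Trnt1, the methionyl-tRNA formyltransferase Mtfmt, the amidotransferase genes Qrsl1, Gatc and Pet112l, the editing factors Aarsd1, Dtd1 and Prorsd1, and Pstk and Sepsecs, which act on selenocysteine tRNA. In the Malat1 library 3 of 13 had a fold of at least 2, where 42.1% of all genes did, and 0 had a fold of 0.5 or less. The median was 1.49, the largest fold was that of Qrsl1 (63 and 144 counts in the Actb and Malat1 libraries, 2.36, 1.76 to 3.17) and the smallest that of Aimp2 (213 and 200 counts, 0.969, 0.799 to 1.18). In the Tfrc library 2 of 13 had a fold of at least 2, where 28.6% of all genes did, and 0 had a fold of 0.5 or less. The median was 1.48, with Mtfmt largest (77 and 255 counts, 2.37, 1.84 to 3.05) and Aimp2 smallest again (213 and 257 counts, 0.863, 0.719 to 1.03).

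Gm15564, the only annotated gene with an exon over a Lars2 match, had 19, 22 and 46 summed counts in the Actb, Malat1 and Tfrc libraries, against 1710112 or more for Lars2. How reads with several matches were counted is not given, so these counts do not show what the shared stretch added to the Lars2 count. That was not tested.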
